A study of Mus musculus with 6 samples.

Results

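The 37 genes described here are macrophage and monocyte genes, taken by symbol from a list of growth factor, receptor, complement, Fc receptor, monocyte-like, resident-like and lipid-associated genes. Of the 37, 36 had a row among the 21718 genes of the count table. Marco, a scavenger receptor, was the exception and is not analysed here. A filter on low counts left 32 of the 36 for testing, among 15963 genes tested in all.

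RNA was measured in 6 whole prostate tumours of castrated mice of a strain that develops prostate tumours. All recipients took 900 rad of irradiation when 6 weeks old, received donor marrow, were castrated at 8 weeks, and gave up their tumours 16 weeks after castration. The F10-deleted group (samples 1, 3 and 4) had marrow from F10fl/fl donors carrying LysM-Cre, and the F10-intact group (also numbered 1, 3 and 4) had F10fl/fl marrow without the Cre. The floxed F10 alleles, the tumour-prone recipient strain, the irradiation and the castration are therefore shared by both groups. LysM-Cre is driven by the Lyz2 locus and acts in monocytes, macrophages and neutrophils, so the deletion concerns the marrow-derived myeloid cells and not the tumour epithelium. Recipient macrophages that survive irradiation keep F10, and how many did is not known from these data. F10, the gene of coagulation factor X, was near the detection limit, with 7, 4 and 9 counts in the F10-deleted tumours and 2, 6 and 17 counts in the F10-intact tumours.

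Macrophages in a tumour come partly from blood monocytes and partly from cells resident in the tissue. CSF1, signalling through its receptor CSF1R, keeps both alive, and the transcription factor encoded by Spi1 sets up the lineage. Tissue macrophages take up dying cells, lipids and complement-coated material, and those that carry much lipid are known for Trem2, Apoe and Gpnmb.

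Totals ranged from 9237308 to 11559980 counts in the F10-deleted samples and from 10520465 to 11821588 in the F10-intact samples. The first principal component, with 46.9% of the variance, had F10-intact sample 4 at one end, away from the rest. All 12 epithelial markers had counts, and summed to 0.829% to 1.00% of counts in the F10-deleted tumours and 0.779% to 0.897% in the F10-intact tumours. Skeletal muscle markers (10 of 10 with counts) took 0.0846% to 0.207% in the F10-deleted tumours, against 0.00166% to 0.0138% in the F10-intact tumours. Adipocyte markers (10 of 10 with counts) took 0.0156% to 0.0297% in the F10-deleted tumours, against 0.00138% to 0.00659% in the F10-intact tumours. The part of this muscle and fat RNA in the results below was not tested. In whole tissue, fewer macrophages and less RNA per macrophage cannot be told apart.

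Several defining macrophage genes of the list were well detected in every tumour, while other members were scarce, as given below. Csf1r, Adgre1, Cd68, Mpeg1 and the C1q genes had at least 170 counts in every sample. The summed share of the 36 genes was 0.244%, 0.194% and 0.199% in the F10-deleted tumours and 0.242%, 0.200% and 0.238% in the F10-intact tumours, so the summed level overlapped between the groups. Apoe alone made up a large part of that sum. Without it the share was 0.155%, 0.144% and 0.161% in the F10-deleted tumours and 0.141%, 0.137% and 0.158% in the F10-intact tumours.

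Levels were compared between genes as RPKM, the reads per kilobase of exon scaled to library size. On this scale, averaged over the 6 samples, Apoe was highest at 331 RPKM, followed by Lyz2 at 165, C1qb at 94.6, C1qa at 89.1, Tyrobp at 85.8 and Cd14 at 74.5 RPKM. The ranges over samples overlapped between each of these genes and the next, so the order is one of means only. At the other end stood genes of specialised resident or alternatively activated macrophages. Cd163 averaged 0.197 RPKM, Timd4 0.0906, Vsig4 0.0660 and Chil3 0.0181 RPKM.

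**Figure D1:**
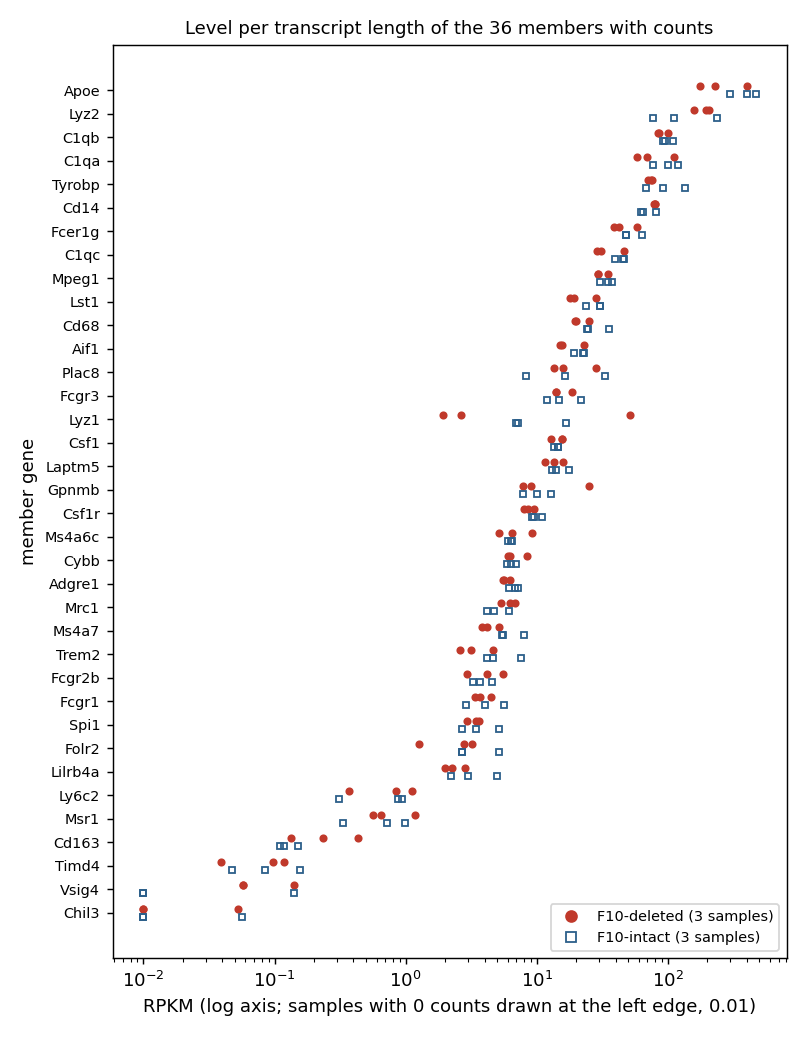
Level of the 36 genes with counts in each tumour, in RPKM on a log axis, ordered by the mean over 6 samples; filled circles are F10-deleted and open squares F10-intact samples. Apoe, Lyz2, C1qb and C1qa lead, Cd163, Timd4, Vsig4 and Chil3 lie at the bottom, and among the 32 tested genes the groups are apart for Ms4a7 only.

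No gene of the list passed the test between the marrow groups. With edgeR's quasi-likelihood test, 0 of 32 were called higher and 0 lower at an adjusted p under 0.05, where 0.0439% of all genes were called higher and 0% lower. The adjusted p ranged from 0.426 to 0.998. At an unadjusted p under 0.05, 0 members were higher and 1 was lower, where 6.15% of all genes were higher and 4.74% lower. With the replicate number as a block, the 3 members Trem2, Ms4a7 and Apoe were lower at an unadjusted edgeR p under 0.05 and 0 were higher, where 6.76% of all genes were lower and 7.64% higher. None passed after adjustment, the lowest adjusted p in that blocked edgeR fit being 0.181. DESeq2 also called 0 of the members, where it called 2.22% of all genes higher and 0.827% lower. The estimates leaned downward: 21 of 32 members had a log2 fold change below 0, where 52.7% of all genes did, and the median was -0.14 over the members and -0.02 over all genes tested. The precision was moderate. For 21 of the 32, the unadjusted 95% interval of the fold change lay within a 2-fold difference either way, and for the other 11 it reached beyond.

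**Figure D2:**
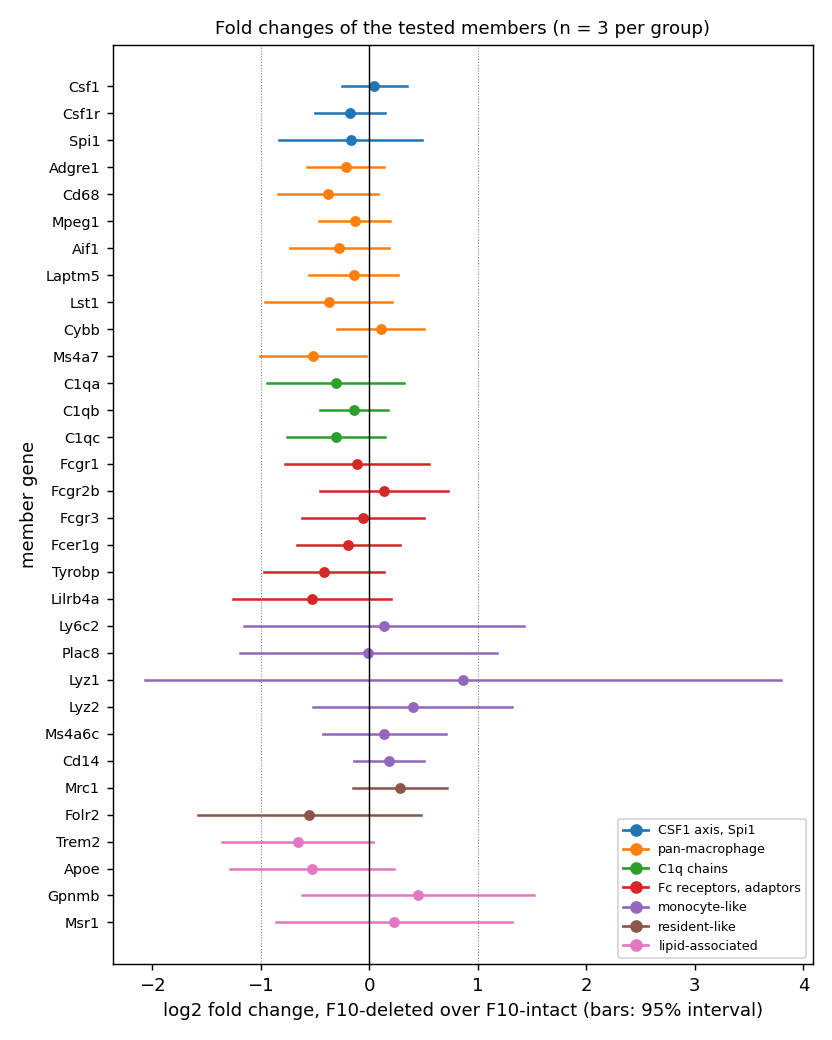
Log2 fold change of each tested member, F10-deleted over F10-intact (points), with its 95% interval (bars), coloured by role group; dotted lines mark a 2-fold difference either way. All intervals except that of Ms4a7 include 0, and that of Lyz1 is the widest.

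The ligand gene Csf1, which stromal and epithelial cells also express, had 82.3, 68.3 and 83.0 CPM (counts scaled to library size) in the F10-deleted tumours and 72.1, 77.2 and 76.8 CPM in the F10-intact tumours. It was the steadiest member, with a highest value 1.21 times the lowest over all 6 samples, and a log2 fold change of 0.05 ± 0.13 (± SE, adjusted p = 0.935 by edgeR). Its receptor gene Csf1r, on chromosome 18, had 55.3, 49.7 and 46.2 CPM in the F10-deleted tumours and 53.1, 62.9 and 55.3 CPM in the F10-intact tumours. The groups overlapped, and the 95% interval of its log2 fold change ran from -0.50 to 0.14. Spi1 had 8.95 ± 0.976 CPM in the F10-deleted group and 10.1 ± 3.37 CPM in the F10-intact group (SD, n = 3 each), with F10-intact sample 4 highest.

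Of the 8 general macrophage genes (pan-macrophage in the plots), 7 had estimates below 0, with a median log2 fold change of -0.25, and the exception was Cybb, the catalytic subunit of the phagocyte NADPH oxidase, at 0.11 ± 0.17 (SE). Ms4a7, a membrane protein of the MS4A family found in tissue macrophages, showed the smallest p of the whole list. It had 18.7, 17.2 and 23.1 CPM in the F10-deleted tumours and 24.2, 24.8 and 35.6 CPM in the F10-intact tumours. Every F10-deleted tumour was thus below every F10-intact one, though by a narrow margin. The log2 fold change was -0.52 ± 0.21 (SE), with an unadjusted edgeR p of 0.0393 and an adjusted p of 0.426, and it was -0.32 on leaving out F10-intact sample 4. Ms4a7 was also the 1 member of 32 whose groups did not overlap with lower values, where 7.67% of all genes did so, and 0 members did so with higher values, where 8.99% did.

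Cd68, a lysosomal glycoprotein, had 31.7, 25.3 and 24.7 CPM in the F10-deleted tumours and 30.6, 30.9 and 44.7 CPM in the F10-intact tumours. The highest value was again F10-intact sample 4, and without that sample the log2 fold change of -0.38 became -0.18. Adgre1, the gene of the classical macrophage surface antigen, had 17.9, 20.3 and 18.2 CPM in the F10-deleted tumours and 19.9, 23.2 and 22.3 CPM in the F10-intact tumours. The overlap was slight, with F10-deleted sample 3 above F10-intact sample 1, and the log2 fold change was -0.22 ± 0.15 (± SE, adjusted p = 0.673 by edgeR). Mpeg1, a pore-forming protein of phagocytes, had 136 ± 14.3 CPM in the F10-deleted group and 149 ± 15.6 CPM in the F10-intact group (SD, n = 3 each), a difference below the spread within either group. Aif1, an actin-binding protein, Laptm5, a lysosomal membrane protein, and Lst1, a leukocyte membrane protein, had log2 fold changes of -0.27, -0.14 and -0.37, all with overlapping groups.

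C1qa, C1qb and C1qc lie next to each other on chromosome 4 (GRCm38, minus strand) and encode the chains of the molecule that starts the classical complement pathway, made largely by macrophages. C1qa spans 136895917 to 136898803, C1qc 136889804 to 136893065 and C1qb 136880129 to 136886187. The promoter windows of C1qb (chr4:136886151-136886450) and C1qc (chr4:136892865-136893164) are shown because these neighbouring genes shared their lowest tumours, F10-deleted samples 3 and 4. They are RefSeq windows on GRCm38.p6, minus strand, from 250 bases before to 50 after the start, and capitals mark the purine-rich element GAGGAA, bound by the Spi1 protein and its relatives, or its reverse complement TTCCTC.
C1qb: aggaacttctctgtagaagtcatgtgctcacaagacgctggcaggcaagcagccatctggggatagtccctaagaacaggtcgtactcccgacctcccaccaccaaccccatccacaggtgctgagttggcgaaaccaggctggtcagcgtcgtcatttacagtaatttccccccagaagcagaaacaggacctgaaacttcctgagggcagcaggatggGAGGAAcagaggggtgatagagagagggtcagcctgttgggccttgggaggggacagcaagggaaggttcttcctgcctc
C1qc: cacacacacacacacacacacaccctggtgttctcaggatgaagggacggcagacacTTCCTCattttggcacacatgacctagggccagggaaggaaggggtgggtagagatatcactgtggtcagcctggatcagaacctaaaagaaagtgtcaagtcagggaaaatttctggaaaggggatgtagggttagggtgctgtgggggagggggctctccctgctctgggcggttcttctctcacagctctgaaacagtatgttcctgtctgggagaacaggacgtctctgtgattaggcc
The element occurs once in each window, on the forward strand for C1qb and on the reverse strand for C1qc. Over the whole list, 27 members matched a window by symbol, and 15 of these had the element on either strand in at least 1 window. Counted by window, 18 of 34 member windows (52.9%) held it, where 28.3% of the 32851 windows of all genes did. A match of these letters describes the window and is not a mapped binding site.

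C1qa had 116, 71.7 and 60.6 CPM in the F10-deleted tumours and 124, 79.7 and 104 CPM in the F10-intact tumours. C1qb had 109, 91.4 and 94.0 CPM in the F10-deleted tumours and 120, 104 and 99.8 CPM in the F10-intact tumours. C1qc had 89.0, 60.0 and 55.8 CPM in the F10-deleted tumours and 87.4, 77.0 and 88.9 CPM in the F10-intact tumours. F10-deleted sample 1 sat among the F10-intact values for C1qa and C1qb and marginally above them for C1qc, while for each gene F10-deleted samples 3 and 4 were the lowest of the 6. The log2 fold changes were -0.31 ± 0.27 for C1qa, -0.14 ± 0.14 for C1qb and -0.31 ± 0.19 for C1qc (SE), with edgeR adjusted p from 0.627 to 0.777. Single tumours moved these values: without F10-deleted sample 1, C1qa was at -0.60 and C1qc at -0.51, with edgeR adjusted p of 0.376 and 0.297. For C1qa, leaving out F10-deleted sample 3 or 4 gave -0.19 or -0.13, and leaving out F10-intact sample 1 or 3 gave -0.12 or -0.46. For C1qc, leaving out F10-deleted sample 3 or 4 gave -0.19 or -0.18. For C1qb, leaving out F10-deleted sample 3 gave -0.06, and leaving out F10-intact sample 1 gave -0.02. The chains did not keep a fixed proportion. The read ratio of C1qa to C1qb, compared between samples only, was 1.07, 0.784 and 0.645 in the F10-deleted tumours and 1.03, 0.769 and 1.04 in the F10-intact tumours.

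Among the 6 Fc receptors and adaptors, 5 had estimates below 0, and the median log2 fold change was -0.15. Tyrobp, the signalling adaptor used by Trem2 and other receptors, had 49.5, 47.2 and 50.5 CPM in the F10-deleted tumours and 45.3, 61.0 and 90.0 CPM in the F10-intact tumours. The F10-deleted values were tightly grouped and lay inside the wide F10-intact range, and the log2 fold change of -0.42 ± 0.24 (± SE, adjusted p = 0.591 by edgeR) was -0.12 without F10-intact sample 4. Lilrb4a, an inhibitory receptor, was likewise highest in F10-intact sample 4, with 11.8, 10.5 and 14.8 CPM in the F10-deleted tumours and 11.5, 15.8 and 26.0 CPM in the F10-intact tumours. Its counts are uncertain, since 32.3% of the stretches of 120 bases, the read length, in its transcripts also occur in those of other genes. The gene that shares the most of them is Gm49339, a gene model that overlaps it. The log2 fold change of Lilrb4a was -0.52 ± 0.31 (± SE, adjusted p = 0.608 by edgeR), and -0.15 without F10-intact sample 4.

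The IgG receptors on the list had overlapping groups, and their 95% intervals reached from -0.77 to 0.72. Fcgr1, the high-affinity receptor, was at a log2 fold change of -0.11 ± 0.29, Fcgr3, an activating low-affinity receptor, at -0.06 ± 0.24, and Fcgr2b, the inhibitory one, at 0.14 ± 0.25 (± SE, adjusted p by edgeR from 0.901 to 0.962). The read ratio of Fcgr3 to Fcgr2b was 1.01 to 1.44 in the F10-deleted tumours and 1.11 to 1.45 in the F10-intact tumours, so the balance of activating to inhibitory reads overlapped between the groups. Fcer1g, the signalling chain shared by activating Fc receptors, had 40.8 ± 9.20 CPM in the F10-deleted group and 46.6 ± 7.98 CPM in the F10-intact group (SD, n = 3 each).

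**Figure D3:**
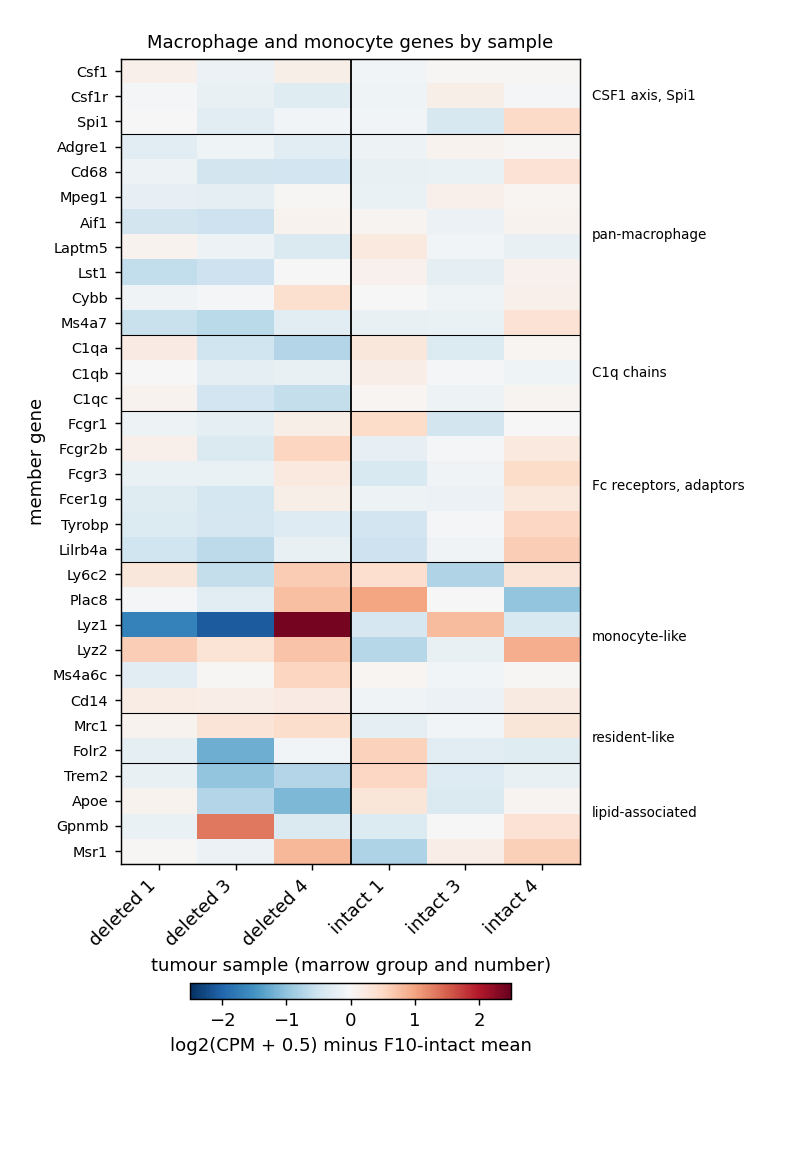
Difference of each tested member from its F10-intact mean, on the log2(CPM + 0.5) scale, with F10-deleted samples left and F10-intact samples right of the line, and genes grouped by role. F10-intact sample 4 is high for Tyrobp, Lilrb4a and Lyz2, F10-deleted sample 3 is high for Gpnmb and the lowest sample for 11 genes, and F10-deleted sample 4 is high for Lyz1.

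Of the 7 monocyte-like genes 6 were tested, and 5 of these had estimates above 0, the median of the 6 being 0.16 on the log2 scale. Leaving out F10-deleted sample 4 turned that median to -0.17, and leaving out sample 3 of the same group gave 0.37, so its sign rested on a single tumour. Lyz2 and Lyz1 encode the lysozymes of mouse, Lyz2 in myeloid cells and Lyz1 best known from Paneth cells of the gut. They are adjacent on the minus strand of chromosome 10 (GRCm38), at 117277331 to 117282321 and 117287797 to 117292868. Their coding sequences, both 447 bases long, are 95.1% identical, with 22 differing bases. The beginning of each, bases 1 to 120 from the start codon in GENCODE M21 on GRCm38, is shown because it fits 1 read, with the 11 differing bases in capitals.
Lyz2: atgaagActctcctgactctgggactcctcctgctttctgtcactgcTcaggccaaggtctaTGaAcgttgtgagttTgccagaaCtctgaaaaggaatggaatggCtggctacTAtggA
Lyz1: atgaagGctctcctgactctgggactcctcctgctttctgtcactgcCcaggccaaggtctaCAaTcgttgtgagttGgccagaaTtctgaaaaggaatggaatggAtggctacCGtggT
The longest identical run in the coding sequences is 118 bases, and no stretch of 120 bases of either transcript occurs in the other, so a full-length read without errors can be told apart.

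Lyz2 had 255, 210 and 274 CPM in the F10-deleted tumours and 101, 146 and 313 CPM in the F10-intact tumours. The LysM-Cre of the F10-deleted donors is driven by this locus, so the groups also differ there by design. The part of the Cre allele in the Lyz2 values, and in the ratio of Lyz1 to Lyz2 below, was not tested. The F10-deleted values were close together and above those of F10-intact samples 1 and 3, but below that of F10-intact sample 4. The log2 fold change of 0.40 ± 0.39 (± SE, adjusted p = 0.772 by edgeR) became 0.99 on leaving out F10-intact sample 4 (adjusted p = 0.149 by edgeR), and 0.14 or 0.25 on leaving out sample 1 or 3 of that group. Lyz1 had 3.36, 2.45 and 65.2 CPM in the F10-deleted tumours and 8.86, 21.1 and 9.12 CPM in the F10-intact tumours. A single tumour, F10-deleted sample 4, thus decided its positive log2 fold change of 0.86 ± 1.22 (± SE, adjusted p = 0.862 by edgeR), which was -2.17 without that sample. The read ratio of Lyz1 to Lyz2 was 0.0132, 0.0117 and 0.238 in the F10-deleted tumours and 0.0876, 0.145 and 0.0291 in the F10-intact tumours. The highest ratio came from the same tumour.

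Plac8, known from monocytes and also from epithelia, had 25.4, 21.6 and 44.9 CPM in the F10-deleted tumours and 52.8, 26.4 and 13.2 CPM in the F10-intact tumours. Its order in the F10-intact tumours was the opposite of that of Lyz2, and it had nearly equal group means, at 30.6 ± 12.5 CPM in the F10-deleted group and 30.8 ± 20.2 CPM in the F10-intact group (SD, n = 3 each). Cd14, the co-receptor for bacterial lipopolysaccharide, had 138, 135 and 138 CPM in the F10-deleted tumours and 113, 109 and 141 CPM in the F10-intact tumours. Here too the F10-deleted values were tight, above F10-intact samples 1 and 3 and below sample 4, with a log2 fold change of 0.18 ± 0.14 (± SE, adjusted p = 0.706 by edgeR). Ms4a6c, another member of the MS4A family, had 101, 157 and 222 counts in the F10-deleted tumours and 145, 144 and 127 counts in the F10-intact tumours, so its F10-deleted values were the more scattered.

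Ly6c2, the surface antigen that marks inflammatory monocytes in mouse, was scarce, with 22, 12 and 36 counts in the F10-deleted tumours and 28, 10 and 23 counts in the F10-intact tumours. Its neighbour and close relative Ly6c1, found also in endothelium, averaged 42.3 ± 11.5 CPM in the F10-deleted group and 35.9 ± 9.78 CPM in the F10-intact group (SD, n = 3 each), and 3.32% of the 120-base stretches of Ly6c2 are shared with other genes. Chil3, a chitinase-like secreted protein, had 1 count in all in each group, which is below the 3 counts taken as the detection floor.

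Of the 6 resident-like genes, 2 passed the filter on low counts. Mrc1, the mannose receptor, was the resident-like gene with the most reads. It had 33.8, 39.7 and 43.5 CPM in the F10-deleted tumours and 26.8, 30.3 and 39.4 CPM in the F10-intact tumours. It was the 1 tested member that was higher in the F10-deleted tumour of all 3 same-numbered pairs, where 20.0% of all genes were, yet the groups overlapped, and the log2 fold change was 0.28 ± 0.19 (± SE, adjusted p = 0.648 by edgeR), or 0.45 on leaving out F10-intact sample 4. Folr2, a folate receptor of tissue macrophages, had 41, 23 and 58 counts in the F10-deleted tumours and 87, 49 and 40 counts in the F10-intact tumours. F10-intact sample 1 stood above the rest, and the log2 fold change of -0.55 ± 0.44 (± SE, adjusted p = 0.718 by edgeR) was -0.13 without it and -0.21 on leaving out F10-deleted sample 3.

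Cd163, a scavenger receptor for haemoglobin, had 7, 28 and 15 counts in the F10-deleted tumours and 7, 7 and 8 counts in the F10-intact tumours. It was below the filter on low counts, and its count ratio of F10-deleted to F10-intact of 2.21 (95% counting interval 1.31 to 3.83) covers counting error only. Scaled to library size, F10-deleted sample 1 lay within the F10-intact range, at 0.735 CPM against 0.646, 0.600 and 0.829 CPM in the F10-intact tumours, and each F10-deleted tumour was above the F10-intact tumour of its number. In the unfiltered edgeR fit its log2 fold change was 1.09 ± 0.54 (SE, adjusted p = 0.571). Timd4, a receptor for phosphatidylserine on dying cells, had 2, 1 and 3 counts in the F10-deleted tumours and 2, 4 and 1 counts in the F10-intact tumours. Vsig4, a complement receptor of resident macrophages, had 2, 1 and 1 counts in the F10-deleted tumours and 0, 0 and 2 counts in the F10-intact tumours, so no difference was detectable for either at this depth. The 95% counting interval of the ratio ran from 0.231 to 2.90 for Timd4 and from 0.279 to 21.5 for Vsig4.

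The 4 lipid-associated genes were split, with 2 estimates below 0 and 2 above, around a median of -0.15 on the log2 scale. Trem2, a lipid-sensing receptor that signals through Tyrobp, lies on the plus strand of chromosome 17 (GRCm38) at 48346401 to 48354147. Its promoter window (RefSeq, GRCm38.p6, plus strand, chr17:48346151-48346450) is shown beside those of C1qb and C1qc, since Trem2 had the lowest fold change of the tested members. Capitals again mark GAGGAA or TTCCTC.
Trem2: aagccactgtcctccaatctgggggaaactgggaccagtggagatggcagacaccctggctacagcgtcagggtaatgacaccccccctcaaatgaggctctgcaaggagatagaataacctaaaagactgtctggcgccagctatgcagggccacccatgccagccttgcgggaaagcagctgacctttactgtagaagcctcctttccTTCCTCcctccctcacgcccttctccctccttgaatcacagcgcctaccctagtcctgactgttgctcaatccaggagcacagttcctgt
The element occurs once in this window, on the reverse strand.

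Trem2 had 23.0, 12.9 and 15.5 CPM in the F10-deleted tumours and 37.4, 20.7 and 22.8 CPM in the F10-intact tumours. The groups overlapped only in that F10-deleted sample 1 lay marginally above F10-intact samples 3 and 4, and each F10-deleted tumour was below the F10-intact tumour of the same number. The log2 fold change was -0.66 ± 0.30 (SE, 95% interval -1.35 to 0.04), with an edgeR adjusted p of 0.485, and leaving out sample 1 gave -0.32 when it was the F10-intact one and -0.89 when it was the F10-deleted one. The read ratio of Trem2 to its adaptor Tyrobp was 0.465, 0.272 and 0.307 in the F10-deleted tumours and 0.825, 0.340 and 0.253 in the F10-intact tumours. It was highest in the tumours numbered 1 in both groups.

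Apoe, a lipid carrier that macrophages, fibroblasts and fat cells make, had 866, 494 and 377 CPM in the F10-deleted tumours and 1005, 634 and 864 CPM in the F10-intact tumours. It too was lower in the F10-deleted tumour of each same-numbered pair, with overlapping groups and a log2 fold change of -0.53 ± 0.32 (± SE, adjusted p = 0.618 by edgeR). Leaving out F10-deleted sample 1 gave -0.91 (adjusted p = 0.279 by edgeR), leaving out sample 4 of that group gave -0.30, and leaving out F10-intact sample 1 gave -0.34. Over the list, 10 of 32 tested members (31.2%) were lower in all 3 pairs, where 21.2% of all genes were. They were Trem2, Apoe, Ms4a7, C1qa, C1qb, Adgre1, Mpeg1, Laptm5, Lst1 and Fcer1g.

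Gpnmb, a glycoprotein of lipid-laden macrophages, did not run with Trem2 and Apoe. It had 58.8, 164 and 50.8 CPM in the F10-deleted tumours and 51.4, 65.5 and 83.9 CPM in the F10-intact tumours. F10-deleted sample 3 stood far above the other 5, and the log2 fold change of 0.45 ± 0.45 (± SE, adjusted p = 0.785 by edgeR) was -0.26 without it, and 0.72 or 0.74 on leaving out F10-deleted sample 1 or 4. The read ratio of Gpnmb to Trem2 was 2.56, 12.8 and 3.27 in the F10-deleted tumours and 1.38, 3.16 and 3.68 in the F10-intact tumours. Msr1, a scavenger receptor for modified lipoprotein, had 39, 42 and 88 counts in the F10-deleted tumours and 23, 53 and 61 counts in the F10-intact tumours. Samples numbered 4 were highest in both groups.

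**Figure D4:**
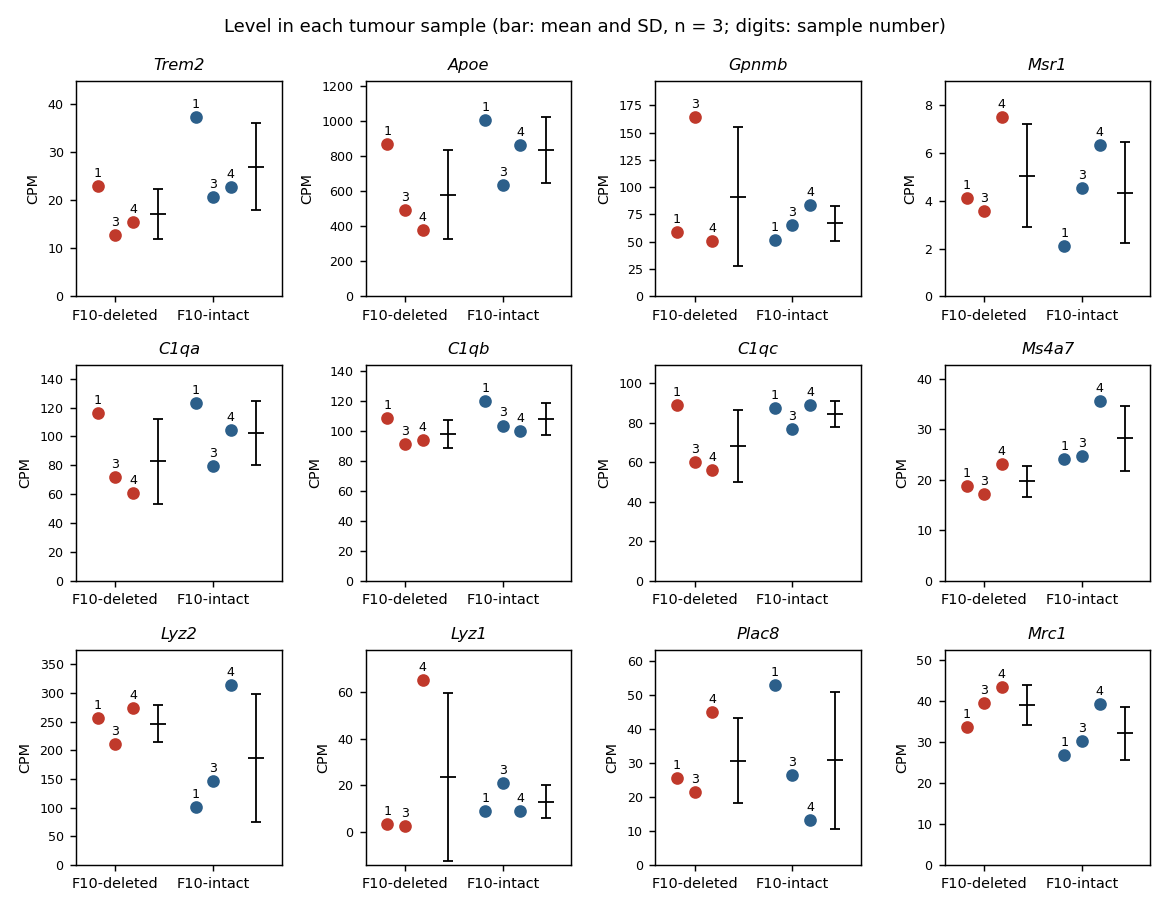
CPM of 12 member genes in each tumour (points, with the sample number), with the mean and SD of each group (bars, n = 3). The groups overlap for every gene but Ms4a7, and the high points of Gpnmb and Lyz1 are single F10-deleted tumours, at 164 and 65.2 CPM.

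The members varied unequally between tumours, in patterns that crossed the marrow groups. The highest CPM was under 2 times the lowest for 20 of the 32 tested members and at least 3 times for 7, which were Lyz1, Folr2, Plac8, Ly6c2, Msr1, Gpnmb and Lyz2. F10-intact sample 4 held the highest value of 10 members, F10-deleted sample 4 of 9 and F10-intact sample 1 of 8. Mitochondrial reads were also most frequent in both samples numbered 4, at 4.58% of counts in F10-deleted and 5.75% in F10-intact sample 4, against 2.45% to 3.23% in the other tumours, and their part in the pattern was not tested. F10-deleted sample 3 held the lowest value of 11. Averaged over a role group, relative to the F10-intact mean on the log2(CPM + 0.5) scale, the general macrophage genes were at -0.28, -0.33 and -0.11 in the F10-deleted tumours and -0.03, -0.08 and 0.12 in the F10-intact tumours. These averages did not overlap, by a margin of a few hundredths of a log2 unit, and no test is given for them. The Fc receptor group was at -0.22, -0.38 and 0.09 in the F10-deleted tumours and -0.21, -0.14 and 0.35 in the F10-intact tumours, with overlap.

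**Figure D5:**
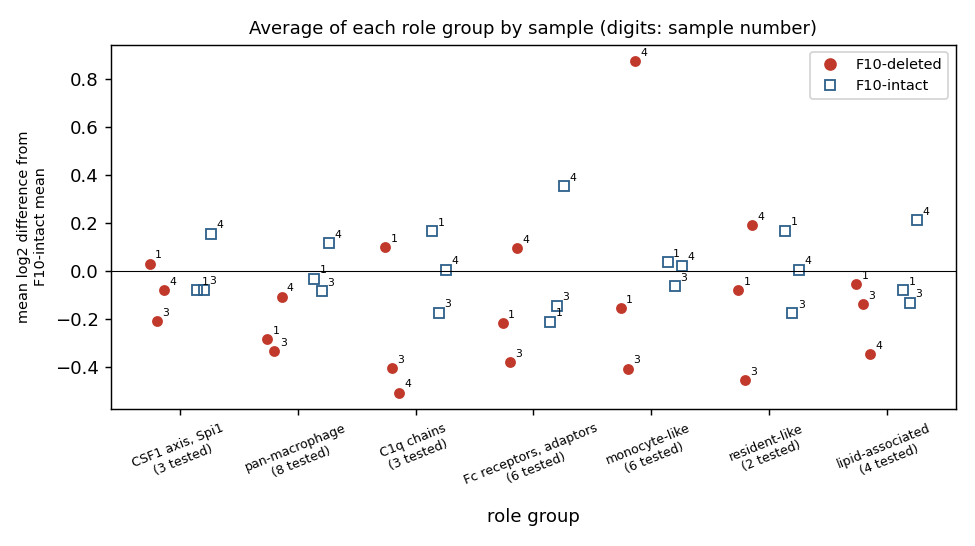
Average over the tested members of each role group in each tumour, as the log2 difference from the F10-intact mean; filled circles are F10-deleted and open squares F10-intact samples, with sample numbers. The groups overlap for every role group except the general macrophage genes, whose F10-deleted averages lie between -0.33 and -0.11, and the high monocyte-like value of 0.87 belongs to F10-deleted sample 4, the tumour with the high Lyz1 value.

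Genes outside the list that belong to the same biology were read from the same fit. Of 20 further myeloid genes, 0 passed in either direction with edgeR or DESeq2. At an unadjusted p under 0.05 there were also 0, where 6.15% of all genes were higher and 4.74% lower. Of the 20, 16 were below 0, where 52.7% of all genes were, and the median log2 fold change was -0.17. The general leukocyte gene Ptprc had 44.7 ± 5.75 CPM in the F10-deleted group and 51.4 ± 8.17 CPM in the F10-intact group (SD, n = 3 each). Irf8, a factor of the monocyte and dendritic lineages, had an estimate of -0.31 ± 0.15 on the log2 scale (± SE, adjusted p = 0.503 by edgeR). The CSF1 receptor pathway, with 12 of 14 genes tested, had a median of 0.0060 and 0 genes that passed with edgeR or DESeq2. At an unadjusted p under 0.05, where 6.15% of all genes were higher and 4.74% lower, 1 gene was higher and 1 lower. These were Kit, a related receptor of mast cells and progenitors, at a log2 fold change of 0.70 ± 0.22, and Csf3r, the receptor of the neutrophil growth factor, at -0.65 ± 0.25 (± SE, adjusted p by edgeR of 0.311 and 0.393).

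Among 20 genes of monocytes and their recruitment, 0 passed with edgeR, and the median was 0.10. At an unadjusted p under 0.05, 3 were higher and 1 was lower, where 6.15% of all genes were higher and 4.74% lower. DESeq2, which called 2.22% of all genes higher, called Vcan and Ccl7 higher, with adjusted p of 0.00106 and 0.0197. Ccl7, a ligand of the monocyte receptor Ccr2, had 5.50 ± 2.25 CPM in the F10-deleted group and 1.76 ± 0.267 CPM in the F10-intact group (SD, n = 3 each, edgeR adjusted p = 0.174), and its groups did not overlap. Vcan, a matrix proteoglycan of monocytes and fibroblasts, had 15.2 ± 3.62 CPM in the F10-deleted group and 6.35 ± 0.478 CPM in the F10-intact group (edgeR adjusted p = 0.109), again without overlap. Of the 20 genes, 3 were without overlap and higher and 2 lower, where 8.99% and 7.67% of all genes were. The fibroblast markers Col1a1 and Col1a2 had log2 fold changes of 1.21 and 0.89 (edgeR adjusted p of 0.0868 and 0.0846). They had the smallest unadjusted edgeR p of 10 fibroblast markers, of which 8 had estimates above 0 and 2 below (median 0.30). Summed, the 10 took 0.171% to 0.186% of counts in the F10-deleted tumours and 0.146% to 0.181% in the F10-intact tumours. These shares overlapped, and the part of fibroblasts in the Vcan values was not tested. Ccr2 itself, named after its values were seen, was at 18.1, 19.3 and 30.7 CPM in the F10-deleted tumours and 22.1, 23.7 and 28.2 CPM in the F10-intact tumours. Its values ran through each other, so the ligand and the receptor did not show the same order of groups.

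Of 19 further resident-like genes tested, 0 passed with edgeR and 12 were below 0. At an unadjusted p under 0.05, Cbr2 was higher and Mertk lower (6.15% and 4.74% over all genes), and DESeq2 called both (2.22% and 0.827% over all genes), with adjusted p of 0.000396 and 0.0415. Mertk, the macrophage receptor for dying cells, had 21.6, 20.6 and 23.0 CPM in the F10-deleted tumours and 30.9, 31.6 and 39.0 CPM in the F10-intact tumours. All F10-deleted tumours were below all F10-intact ones, with a log2 fold change of -0.64 ± 0.15 (SE), an unadjusted edgeR p of 0.0035 and an adjusted p of 0.194. Mertk was the 1 of these 19 without overlap and lower, where 7.67% of all genes were, and Cbr2 the 1 higher, where 8.99% were. Cbr2, a carbonyl reductase that airway and other epithelia also express in mouse, had 1584 ± 84.9 CPM in the F10-deleted group and 865 ± 180 CPM in the F10-intact group (SD, n = 3 each, edgeR adjusted p = 0.146). Among 19 further lipid-associated and lysosomal genes tested, 0 passed with edgeR, and the median was 0.03. At an unadjusted p under 0.05, 2 were higher and 3 lower, beside the same 6.15% and 4.74% over all genes. DESeq2, with 2.22% of all genes higher and 0.827% lower, called Cd36 higher (adjusted p = 0.0245) and Fabp5, a fatty acid binding protein of macrophages and epithelia, lower (adjusted p = 0.0123). Fabp5, named after its values were seen, had 133, 129 and 109 CPM in the F10-deleted tumours and 133, 382 and 605 CPM in the F10-intact tumours. Ctsd, a lysosomal protease, was at -0.57 ± 0.17 and Cd36, a fatty acid transporter of macrophages, endothelium, muscle and fat, at 1.39 ± 0.38 (± SE, adjusted p by edgeR of 0.293 and 0.25). The fat and muscle markers given above also took a larger share of counts in the F10-deleted tumours, and their part in the Cd36 values was not tested.

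Genes of macrophage activation and polarisation had 19 tested, 0 that passed with edgeR, 12 above 0 and a median of 0.27. At an unadjusted p under 0.05, 3 were higher and 0 lower, against 6.15% and 4.74% over all genes, and DESeq2 called Il1rn higher (adjusted p = 0.000755), where it called 2.22% of all genes higher. Il1rn, the natural antagonist of interleukin-1, had 88.5 ± 16.2 CPM in the F10-deleted group and 45.6 ± 6.98 CPM in the F10-intact group (SD, n = 3 each, edgeR adjusted p = 0.110), and squamous epithelium also expresses it. Arg1, arginase of alternatively activated macrophages, had 94.2 ± 10.6 CPM in the F10-deleted group and 62.2 ± 14.3 CPM in the F10-intact group (edgeR adjusted p = 0.308). Both had higher values in all F10-deleted tumours than in any F10-intact tumour. Counting these, 4 of the 19 were without overlap and higher and 0 lower, where 8.99% and 7.67% of all genes were. The direction of Il1rn and Arg1 was opposite to the leaning of the general macrophage genes, and with edgeR none of these differences passed.

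Markers of other leukocytes were read in the same way, and for neutrophils, dendritic, mast, T and NK, B and plasma cells 0 passed with edgeR or DESeq2. At an unadjusted p under 0.05, 1 of 6 tested neutrophil and 1 of 10 dendritic markers were lower, where 4.74% of all genes were. Of 10 T and NK markers, 1 was higher, where 6.15% of all genes were. No marker with a row was at 0 in all samples. Neutrophil markers (8 of 12 with a row) took 0.0560% to 0.0951% of counts in the F10-deleted tumours and 0.0542% to 0.0706% in the F10-intact tumours, a sum in which Ltf, also secreted by epithelia, dominates. S100a8 had 207, 321 and 377 counts in the F10-deleted tumours and 289, 543 and 607 counts in the F10-intact tumours. Retnlg, made by neutrophils too, had a log2 fold change of -1.19 ± 0.52 (± SE, adjusted p = 0.459 by edgeR). S100a8 and Retnlg had the smallest unadjusted edgeR p of the 6 tested neutrophil markers. Of these 6, 4 had estimates below 0 and 2 above, from -1.19 to 0.31, with a median of -0.61. Dendritic cell markers (10 of 10 with counts) had a median of -0.39, and the mast cell markers (6 of 6 with counts) a median of -0.67 with the widest scatter, at 0.000519% to 0.00238% of counts in the F10-deleted tumours and 0.000228% to 0.00331% in the F10-intact tumours. Lyz2, Tyrobp, Fcer1g, Cybb and Spi1 are expressed by several of these cells as well, and the part of each cell type in their values was not tested.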

How the data were processed

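Poly-A RNA of 6 tumours was sequenced with a strand-specific kit as single reads 120 bases long, according to the labels' protocols. The deposited table holds the authors' unnormalised counts of reads for each Ensembl gene. Per the submitters' processing notes, STAR 2.7.10a and the build GRCm38 were used and DESeq2 is named without a role. Which program made the counts, and with which strand setting, is not given in the sources used here. Counts of overlapping genes are therefore uncertain. Symbols, positions and exon lengths were taken from GENCODE M21 (GRCm38), where 21605 of the identifiers had a symbol and 113 had none. Nothing in the labels states that the samples are separate animals, so a p-value reflects the spread of these samples alone, which may be technical.

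Counts were tested with the edgeR quasi-likelihood test (edgeR 4.0.16, R 4.3.3, robust), with TMM scaling, filterByExpr at a minimum count of 10, no covariate, Benjamini-Hochberg adjustment over 15963 genes and a threshold of 0.05. The test was run on simulated data first. CPM uses the TMM factors, and RPKM divides it by the union of exons. A positive fold change means higher in F10-deleted tumours. With 3 samples per group an exact permutation test cannot go below 0.1 and was not used. Alternatives were RLE and upper quartile scaling, DESeq2 1.42.0, limma-voom (limma 3.58.1), no filter, at least 1 CPM in 3 samples, leaving out each sample, the replicate block and a looser adjusted p of 0.1. Deviations from the group mean correlated across genes between same-numbered samples (0.37, 0.14 and 0.19 for numbers 1, 3 and 4). Each was over the criterion of 0.1, but differently numbered samples were not compared, and the labels name no shared day or litter. Whether the numbers pair the samples is therefore not settled, and the fits without and with the replicate block are both given. Count ratios have exact intervals for counting error alone.

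The members, their role groups and all lists were chosen with earlier results of these data known. All members are named. Of each list of further genes, and of the neutrophil and fibroblast markers, genes with the smallest unadjusted edgeR p are named. Ly6c1, Ptprc and F10 are named as well, and other genes are marked. From the marker lists of the other cell types no gene is named. Of 9 tested adipocyte markers, 1 passed with edgeR, higher in F10-deleted, where 0.0439% of all genes did. Some items are not reported here. Of the lists named in the text, each is described by counts and a median, with no set test.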

Additional observations from a re-analysis of the deposited data

How the results depend on the processing

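The number of members passing the test was 0 under every alternative run, at an adjusted p under 0.1, with the replicate block and with each sample left out included. The block changed no call: its smallest adjusted p among the members was 0.181 (edgeR, Trem2), and its median over the members was -0.14. Over all genes the count of calls was 7, and it was 487 with DESeq2, 2 with limma-voom, 2 with the CPM filter, 2 with the replicate block, 85 at an adjusted p under 0.1, and 0 to 72 with a sample left out. The members' median of -0.14 ranged from -0.20 to -0.06 with a sample left out, and the members below 0 from 19 to 28.

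Medians of small role groups moved when single samples were left out, though those of the C1q chains and of the Fc receptors and adaptors kept their sign. With a sample left out, the growth factor axis ranged from -0.20 to 0.058, the resident-like genes from -0.31 to 0.45, the lipid-associated genes from -0.33 to 0.045, the monocyte-like genes from -0.17 to 0.37, the C1q chains from -0.51 to -0.12 and the Fc receptors and adaptors from -0.31 to -0.02. The resident-like median was 0.29 with no filter, where more genes entered. Its 0.45 came without F10-intact sample 4, where 33 members were tested in place of 32, and equalled the value of Mrc1. A change in the genes tested therefore also entered that range. Plac8 changed sign, from -0.0074 to 0.00088 with RLE scaling, 0.0078 with upper quartile scaling, 0.0012 with DESeq2, 0.13 with limma-voom, 0.0085 with no filter, 0.0040 with the CPM filter and 0.10 with the replicate block. Lyz1 was at -0.51 with limma-voom and -0.57 with the replicate block. The cause was not tested.

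Leaving out a sample turned the sign of 13 members. Their log2 fold changes ranged from -0.11 to 0.38 for Fcgr2b, -0.21 to 0.21 for Fcgr3, -0.36 to 0.12 for Spi1, -0.32 to 0.19 for Fcgr1, -0.0021 to 0.16 for Csf1, -0.23 to 0.023 for Laptm5, -0.39 to 0.66 for Plac8, -0.26 to 0.74 for Gpnmb, -0.18 to 0.59 for Msr1, -2.17 to 1.44 for Lyz1, -0.23 to 0.51 for Ly6c2, -0.12 to 0.35 for Ms4a6c and -0.066 to 0.23 for Cybb. At this depth Timd4, Vsig4 and Chil3 were too scarce to compare.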
